A study of Mus musculus with 7 samples.

Results

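Described here are 2189 regions of open chromatin that were called in both ATAC-seq libraries of RAW264.7 cells given RANKL together with the BET inhibitor I-BET, and in none of 5 other libraries. Peaks of all 7 libraries that overlapped or touched were merged into 344401 regions, and 1 bp of a library's peaks within a region was enough for a call. The regions were thus chosen by the authors' peak calls, which are the measurement itself. The 2189 regions, called RANKL+Ibet-only below, made up 0.636% of all regions. RAW264.7 is a mouse monocyte-macrophage line that becomes osteoclast-like with RANKL, and the labels name bone marrow as its source. Cells were given RANKL (50 ng/ml) with I-BET (500 nM) in 2 libraries, RANKL (50 ng/ml) in 2, I-BET (500 nM) without RANKL in 1, labelled replicate 2, and neither agent (Untreated) in 2, and the treated cells were taken after 4 h. All libraries came from the same line and from 50000 cells each, and the labels leave unsaid if replicates came from separate cultures.

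ATAC-seq uses a transposase that cuts and tags DNA where it is not wrapped in nucleosomes, so its peaks mark promoters, enhancers and other accessible stretches. RANKL, a cytokine made by bone and immune cells, starts the conversion of macrophage precursors into bone-resorbing osteoclasts through NF-kB, AP-1 and Nfatc1. BET proteins such as Brd2 bind acetylated lysines on histones and help RNA polymerase II to elongate, and I-BET occupies their binding pockets. The label of the regions rests on calls alone. A region that a library did not call was below that library's threshold, and its accessibility there was not measured as 0.

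Where starts were held, 62.9% of the RANKL+Ibet-only regions lay over 10 kb from an annotated start, against 66.7% of all regions. The share overlapping the bases around a start was not worked out for other regions. The 2189 regions include some where no starts were held, so no overlap was possible there. Of the 2189, 30 (1.37%) overlapped the 300 bp around an annotated start (250 bases before it and 50 from it on). These windows belonged to 34 starts of 32 genes, 16 of them protein-coding. The 6 protein-coding windows printed here are those the regions covered most completely, by 279 to 300 of their 300 bases. Covering a window does not place the summit in it: both summits lay in the window at Spata6, Steap4 and Unc45b, 1 of 2 at Cyp11a1 and Tspan2, and 0 at Mmp12. They come from RefSeq on GRCm38.p6, the build that corresponds to mm10, and read 5′ to 3′ on the strand of the gene. Capitals mark the letters of 6 motifs searched on both strands: the AP-1 site TGANTCA, the E-box CACGTG, the PU.1 core GAGGAA, the Runx site TGTGGT, the C/EBP site TTGCNNAA and the TATA box TATAAA, or the reverse complement of each. No matches overlapped each other in these windows. Mmp12 encodes macrophage metalloelastase, Spata6 a protein of the sperm neck, Steap4 a metalloreductase of macrophages and fat, Cyp11a1 the enzyme of the first step from cholesterol to steroid hormones, Unc45b a myosin chaperone of muscle, and Tspan2 a tetraspanin.
Mmp12: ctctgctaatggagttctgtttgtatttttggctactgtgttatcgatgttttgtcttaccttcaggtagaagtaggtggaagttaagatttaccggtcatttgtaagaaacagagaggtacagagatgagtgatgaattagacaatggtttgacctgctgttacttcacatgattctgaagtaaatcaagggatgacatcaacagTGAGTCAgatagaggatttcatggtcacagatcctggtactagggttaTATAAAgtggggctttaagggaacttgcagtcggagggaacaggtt
Spata6: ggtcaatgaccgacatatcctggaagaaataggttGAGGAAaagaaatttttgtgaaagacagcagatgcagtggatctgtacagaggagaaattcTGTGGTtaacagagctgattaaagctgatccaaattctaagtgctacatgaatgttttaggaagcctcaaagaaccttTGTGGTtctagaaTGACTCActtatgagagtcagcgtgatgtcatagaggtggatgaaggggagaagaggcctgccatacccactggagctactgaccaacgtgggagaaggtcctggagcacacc
Steap4: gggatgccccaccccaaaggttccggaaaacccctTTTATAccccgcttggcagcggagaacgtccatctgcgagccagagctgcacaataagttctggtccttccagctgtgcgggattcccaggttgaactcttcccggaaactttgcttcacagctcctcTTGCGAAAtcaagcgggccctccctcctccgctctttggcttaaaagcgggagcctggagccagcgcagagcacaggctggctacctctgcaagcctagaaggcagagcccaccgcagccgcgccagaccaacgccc
Cyp11a1: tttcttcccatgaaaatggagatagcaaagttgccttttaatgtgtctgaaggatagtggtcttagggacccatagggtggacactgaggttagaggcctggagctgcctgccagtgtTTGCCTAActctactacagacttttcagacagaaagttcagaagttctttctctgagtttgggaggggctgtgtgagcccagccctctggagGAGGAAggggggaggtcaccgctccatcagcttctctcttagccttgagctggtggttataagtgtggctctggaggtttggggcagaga
Unc45b: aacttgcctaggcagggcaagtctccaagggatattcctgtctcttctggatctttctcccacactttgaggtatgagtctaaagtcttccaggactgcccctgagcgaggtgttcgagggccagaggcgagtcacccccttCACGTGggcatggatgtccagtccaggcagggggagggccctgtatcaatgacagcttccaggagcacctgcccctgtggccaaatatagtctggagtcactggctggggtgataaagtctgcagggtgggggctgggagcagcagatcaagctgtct
Tspan2: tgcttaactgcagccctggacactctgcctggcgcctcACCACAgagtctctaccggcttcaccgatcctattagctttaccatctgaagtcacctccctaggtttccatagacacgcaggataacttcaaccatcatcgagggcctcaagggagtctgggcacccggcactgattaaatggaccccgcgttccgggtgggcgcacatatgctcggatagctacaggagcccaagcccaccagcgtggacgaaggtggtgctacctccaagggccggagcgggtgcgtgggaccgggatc
The windows lie at chr9:7347124-7347423 (+), chr4:111777347-111777646 (+), chr5:7960222-7960521 (+), chr9:58014702-58015001 (+), chr11:82911003-82911302 (+) and chr3:102734520-102734819 (+), in the order of the sequences.

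At Mmp12 the region chr9:7347145-7347553 covered 279 bases of the window. Its deposited -log10 p was 8.14 in RANKL+Ibet replicate 1 and 7.18 in replicate 2. The pileup, the number of overlapping reads or fragments at the summit as recovered from the deposited fold, was 19 and 37. Both summits lay 9 bp apart, outside the window. The nearest region of another library was 1137 bp away and was called in 6 of the 7 libraries. Counted from +1 at the annotated start, the AP-1 match began at position -44 and the TATA box match at position 5. At Spata6 the region chr4:111777323-111777753 covered the whole window, with a -log10 p of 4.21 in replicate 1 (pileup 13) and 17.4 in replicate 2 (pileup 56). It stood alone, since the nearest region of another library was 38842 bp away. Its window held an AP-1 match at -63, a PU.1 core at -215 and Runx matches at -154 and -76.

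The region at Steap4 (chr5:7960087-7960507) was weaker, with -log10 p values of 3.65 and 5.07 in RANKL+Ibet replicates 1 and 2 and summits 13 bp apart. Its window held a C/EBP match at -87 and a TATA box match, read on the other strand, at -215. At Cyp11a1 (chr9:58014689-58015202) the -log10 p values in replicates 1 and 2 were 3.65 and 5.47, and the window held a PU.1 core at -40 and a C/EBP match at -132. Unc45b (chr11:82910743-82911355) had values of 4.80 and 5.07 in these libraries and an E-box at -108. Tspan2 (chr3:102734082-102734863) had 4.80 and 4.68, summits 324 bp apart, and a Runx match at -212. The other protein-coding windows were those of Hapln2, Lpo, Txk, Caly, Fgf23, C2cd4d, Apoc4, Gm44805, Cpeb1 and Enpp7, covered by 3 to 273 bases. Among these, Txk encodes a Tec-family kinase of T cells and Fgf23 the phosphate-lowering hormone made by bone cells.

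Over all 34 windows a C/EBP match was present in 7 (20.6%), against 10.8% of all 32851 windows in the table. The PU.1 core was in 11 (32.4%), against 28.3%, and the Runx site in 7 (20.6%), against 16.8%. AP-1 was in 3 (8.82%), against 7.81%, the E-box in 2 (5.88%), against 7.15%, and the TATA box in 3 (8.82%), against 13.6%. Protein-coding starts made up 50% of the 34 windows and 64.7% of all windows. Among protein-coding starts alone the E-box was in 2 of 17 (11.8%), against 7.84%, and the TATA box in 3 (17.6%), against 12.6%. The differences for these motifs thus changed direction with the kind of start, and those for the other motifs did not. Each of these counts is of 2 to 11 windows, and a match is a description of letters. Windows of neighbouring starts share bases, so 1 site can count more than once: the C/EBP matches at Steap4 and Gm30835 are the same bases, which leaves 6 distinct C/EBP sites in the 7 windows, and the PU.1 core at both starts of Gm33496 is also 1 site. The windows also had few CpG dinucleotides, a median of 5 at a GC content of 54.8%. Windows of regions called in all 7 libraries had a median of 21 CpG at 61.0% GC, and all windows had 7 at 52.7%. The RANKL+Ibet-only starts were thus closer to the table as a whole than to the CpG-rich starts open in every library.

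Regions called in both RANKL+Ibet libraries numbered 80586. Of these, 43170 (53.6%) were called in all 5 other libraries too, 16850 in 4, 8040 in 3, 5980 in 2 and 4357 in 1, which left the 2189 (2.72%) called in none. The same rule applied to the other pairs gave 955 regions for both RANKL libraries alone (0.277% of all regions) and 799 for both Untreated libraries alone (0.232%). These counts depend on how sensitive each library was, and each pair had a different set of 5 libraries against it. Leaving out RANKL replicate 1 raised the 2189 to 4012. Asking for RANKL+Ibet replicate 2 alone gave 31704 and for replicate 1 alone 22888, since a call in 1 library was then enough.

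**Figure D1:**
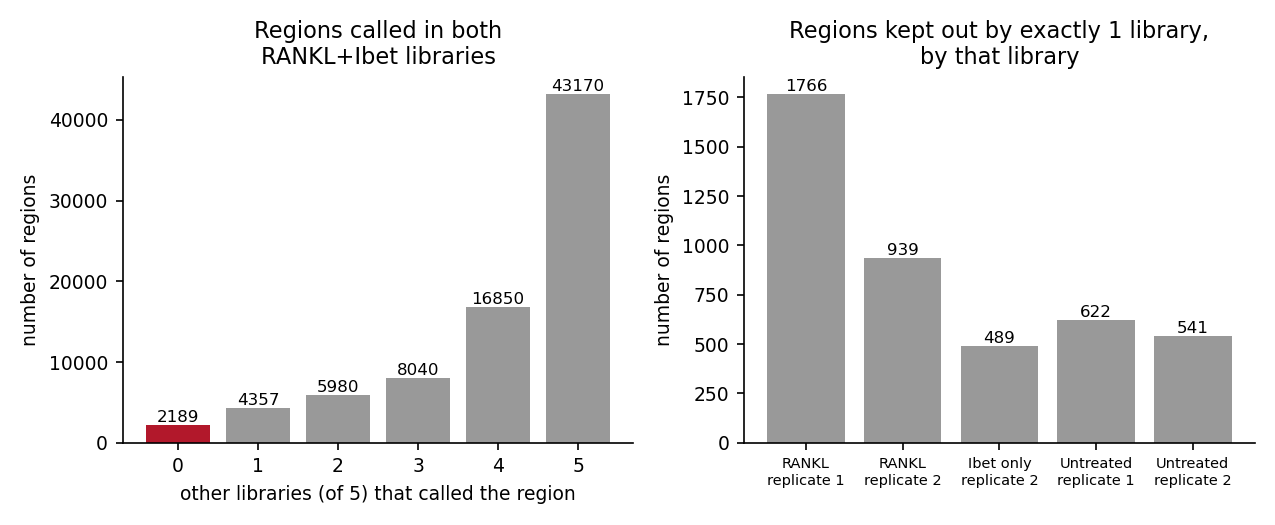
Left, the number of regions called in both RANKL+Ibet libraries (vertical axis) by how many of the 5 other libraries also called them (horizontal axis), with the 2189 RANKL+Ibet-only regions in red. Right, the 4357 regions called in exactly 1 other library, by that library; RANKL replicate 1 accounted for 1766.

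The libraries differed in sensitivity. The 2 RANKL+Ibet lists held 125240 and 166369 peaks in replicates 1 and 2, against 132626 to 154069 for RANKL, 143176 for Ibet only and 117175 to 136739 for Untreated. Read totals are not given, so depth was read from the deposited folds. In every list all folds were whole multiples of 1 step, the pattern that a pileup plus 1 over a constant background plus 1 gives. That background pileup was 3.92 and 13.8 in RANKL+Ibet replicates 1 and 2, 4.12 and 2.04 in RANKL replicates 1 and 2, 1.11 in Ibet only replicate 2, and 2.55 and 1.81 in Untreated replicates 1 and 2. RANKL+Ibet replicate 2 was therefore the deepest and called the weakest peaks relative to background, at a pileup of 23, or 1.66 times background. The lowest pileup that could be called was 2.19 and 2.94 times background in RANKL replicates 1 and 2, 3.59 times in Ibet only replicate 2, and 2.75 and 3.31 times in Untreated replicates 1 and 2. Calls shared with no other library made up 42.9% of the regions of Untreated replicate 1, against 8.95% to 27.1% in the other 6.

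The RANKL+Ibet-only regions were weak peaks in the libraries that called them, values that belong to the calls that chose them and are given as a description. In RANKL+Ibet replicate 1 the summit pileup was 13 at the median (9 to 28), the fold 2.85 and the -log10 p 4.21 (2.15 to 15.4). In replicate 2 the pileup was 34 (23 to 85), the fold 2.36 and the -log10 p 5.88 (2.08 to 38.2). Regions called in all 7 libraries had median pileups of 50 and 256 in replicates 1 and 2 and median -log10 p values of 37.6 and 222. Ranked within the whole list, with 0 the weakest peak and 100 the strongest, the RANKL+Ibet-only regions had median percentile ranks of 25.8 in replicate 1 (highest 69.5) and 22.2 in replicate 2 (highest 65.6). The all-library regions had 81.6 and 86.4. Only 19 RANKL+Ibet-only regions lay above the middle of both lists.

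**Figure D2:**
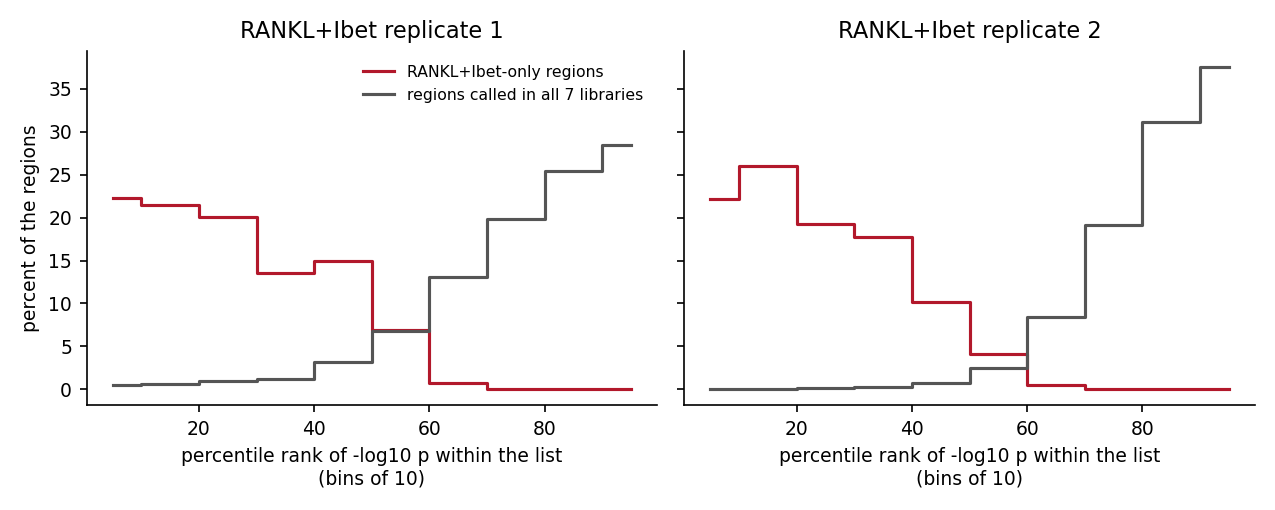
Percentile rank of the -log10 p within the peak list of RANKL+Ibet replicate 1 (left) and replicate 2 (right), in bins of 10, as percent of the regions, for RANKL+Ibet-only regions (red) and regions called in all 7 libraries (grey). The highest RANKL+Ibet-only ranks are 69.5 in replicate 1 and 65.6 in replicate 2, and the grey lines climb to the right edge.

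Set against what the other libraries could call, most of these peaks were below at least 1 of the thresholds. Relative to background the summit pileup was 3.32 at the median in RANKL+Ibet replicate 1 and 2.46 in replicate 2, and it was higher in replicate 1 for 1910 regions (87.3%). Judged by replicate 1, 0 regions lay under the lowest value called in RANKL replicate 1, 141 (6.44%) under that of Untreated replicate 1, 487 (22.2%) under that of RANKL replicate 2, 956 (43.7%) under that of Untreated replicate 2 and 1693 (77.3%) under that of Ibet only replicate 2. Judged by replicate 2, these numbers were 626 (28.6%), 1577 (72.0%), 1722 (78.7%), 1931 (88.2%) and 2032 (92.8%) in the same order. A peak of the same height over background could therefore have gone uncalled in Ibet only replicate 2 at most of these regions. How far the lack of a call in these libraries followed from their depth was not tested.

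**Figure D3:**
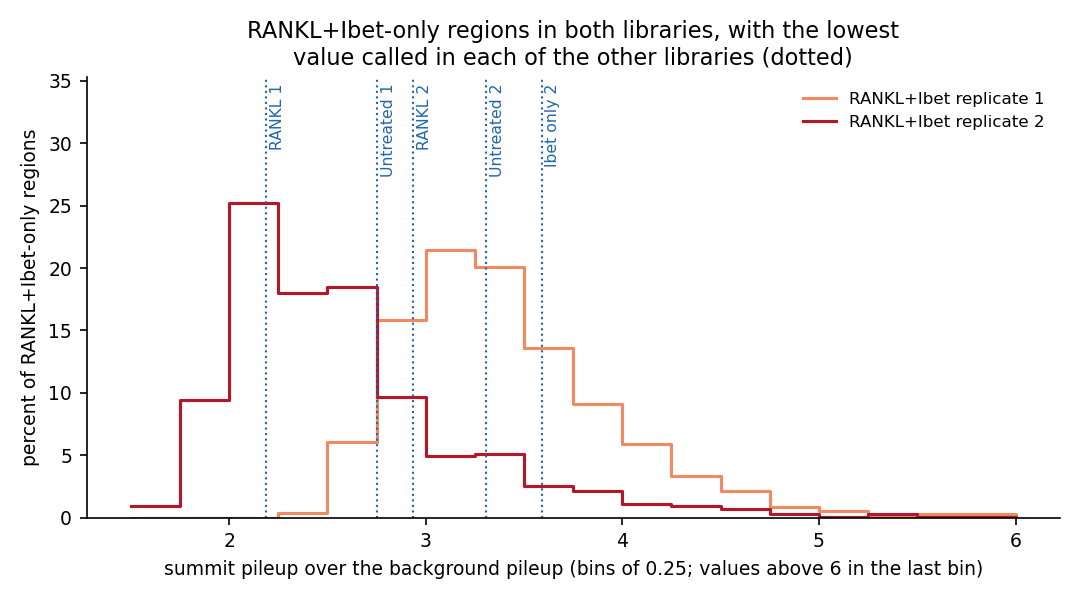
Summit pileup divided by the background pileup for the 2189 RANKL+Ibet-only regions in RANKL+Ibet replicate 1 (orange) and replicate 2 (red), as percent of the regions in bins of 0.25, with values above 6 in the last bin. Dotted lines mark the lowest value called in each of the other 5 libraries, from 2.19 in RANKL replicate 1 to 3.59 in Ibet only replicate 2; most of the replicate 2 values lie left of all but the lowest line.

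Regions just outside the rule were those called in both RANKL+Ibet libraries and in exactly 1 other. RANKL replicate 1 kept out 1766 of these 4357 (40.5%), RANKL replicate 2 939 (21.6%), Ibet only replicate 2 489 (11.2%), Untreated replicate 1 622 (14.3%) and Untreated replicate 2 541 (12.4%). The peak that kept a region out had a median -log10 p of 5.16 in RANKL replicate 1, 4.99 in RANKL replicate 2, 3.79 in Ibet only replicate 2, 4.14 in Untreated replicate 1 and 4.69 in Untreated replicate 2. These medians also depend on the depth of each library. Just inside the rule, the weakest regions were 28193 bp from Ube2e1 and inside Glp1r and Zbed3, each with a -log10 p of 2.08 and a pileup of 23 in RANKL+Ibet replicate 2. In replicate 1 the weakest were inside Eef1akmt4 and 56285 bp from Txndc16, with 2.15 and a pileup of 9.

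The RANKL+Ibet-only regions were shorter than regions called in all 7 libraries and often beside a region of another library. Their median length was 394 bp (150 to 1166), against 1312 bp for the all-library regions. It was above the 308 bp of all regions, the 348 bp of the RANKL pair and the 339 bp of the Untreated pair. The summits of both libraries lay within 50 bp of each other in 37.2% of RANKL+Ibet-only regions, with a median gap of 78 bp. That share was 34.2% for the RANKL pair, 28.8% for the Untreated pair and 64.3% for all-library regions, which have taller peaks. The nearest region that any other library called was 780 bp away at the median, and within 500 bp for 874 regions (39.9%, exact Clopper-Pearson 95% bounds 37.9% and 42.0%, for counting error only). For the RANKL pair this share was 40.9% and for the Untreated pair 41.9%, both within that interval. More than 5 kb from any region of another library stood 254 regions (11.6%), against 12.5% for the RANKL pair and 6.76% for the Untreated pair. Another RANKL+Ibet-only region lay within 10 kb of 153 (6.99%), against 2.93% and 4.38% for the smaller sets of the RANKL and Untreated pairs.

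Gene ends held no larger share of the RANKL+Ibet-only regions than of all regions. Within 1 kb of either end of a protein-coding gene lay 179 of 2189 (8.18%, 7.06% to 9.40%), against 8.59% for the RANKL pair, 10.8% for the Untreated pair, 27.2% for all-library regions and 9.01% of all regions. Inside a protein-coding gene lay 1257 (57.4%, 55.3% to 59.5%), against 57.4% for the RANKL pair, 66.7% for the Untreated pair and 56.9% of all regions. The annotation used gives gene bodies and starts but no exons, so exon and intron were not told apart. Leaving out chromosome 18, for which no starts were held, 109 of 2124 regions (5.13%) were within 1 kb of an annotated start, against 24.7% of all-library regions and 6.76% of all regions. For the RANKL pair this share was 6.62% and for the Untreated pair 5.58%. A further 245 (11.5%) lay 1 to 3 kb from a start, against 9.66% for the RANKL pair, 8.63% for the Untreated pair and 7.41% of all regions. More than 10 kb from any start were 1336 (62.9%), against 67.2% for the RANKL pair, 62.4% for the Untreated pair and 66.7% of all regions.

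**Figure D4:**
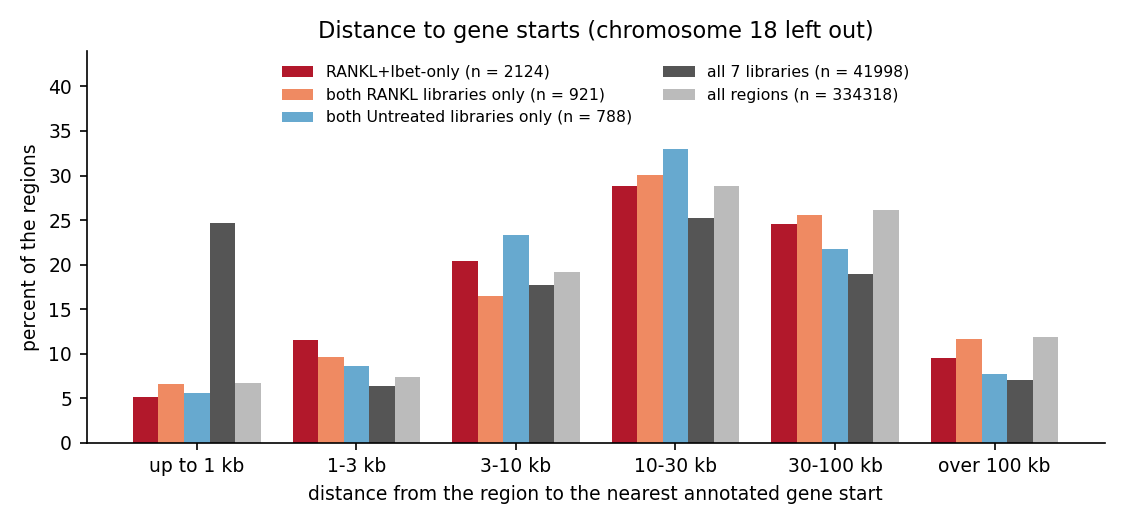
Percent of the regions of each kind (vertical axis) by distance to the nearest annotated gene start, without chromosome 18. RANKL+Ibet-only regions (red) had 5.13% within 1 kb, against 24.7% of the regions called in all 7 libraries (dark grey), and 62.9% lay more than 10 kb away.

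Chromosome 3 held 217 RANKL+Ibet-only regions, which were 0.894% of its regions (0.779% to 1.02%), above the 0.636% over the genome. It took 9.91% of the RANKL+Ibet-only regions and 7.05% of all regions, with 8.59% for the RANKL pair and 5.51% for the Untreated pair. Chromosome 9 had 123, or 0.523% of its regions (0.435% to 0.624%). The X chromosome had 11, or 0.338% of its regions (0.169% to 0.603%), and the Y chromosome 0 of 52, which allows a share of up to 6.85%. Of 280 bins of 10 Mb with any region, the 3 with the highest counts were neighbours on chromosome 3, between 80 and 110 Mb, with 43, 41 and 38 RANKL+Ibet-only regions against a median of 7. These bins also held many regions of any kind, 3776, 3126 and 4598 against a median of 1081, so the RANKL+Ibet-only shares were 1.14%, 1.31% and 0.826%. Other bins had larger shares from fewer regions, such as 8 of 407 (1.97%) in the first 10 Mb of chromosome 1 and 12 of 861 (1.39%) from 70 to 80 Mb on chromosome 3. The stretch from 80 to 110 Mb on chromosome 3, chosen after its values were seen, held 122, or 1.06% of its 11500 regions. It took 5.57% of the RANKL+Ibet-only regions, 3.87% of the RANKL pair's and 3.13% of the Untreated pair's.

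Single libraries differed there too. The stretch took 3.88% of the regions called in RANKL+Ibet replicate 1, 3.77% in RANKL replicate 1 and 3.93% in Untreated replicate 1. In the libraries labelled replicate 2 it took 3.01% with RANKL+Ibet and 2.44% to 2.61% in the other 3. The replicate 1 libraries thus had the larger shares in every group with a pair, and the part of this difference in the count was not tested.

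**Figure D5:**
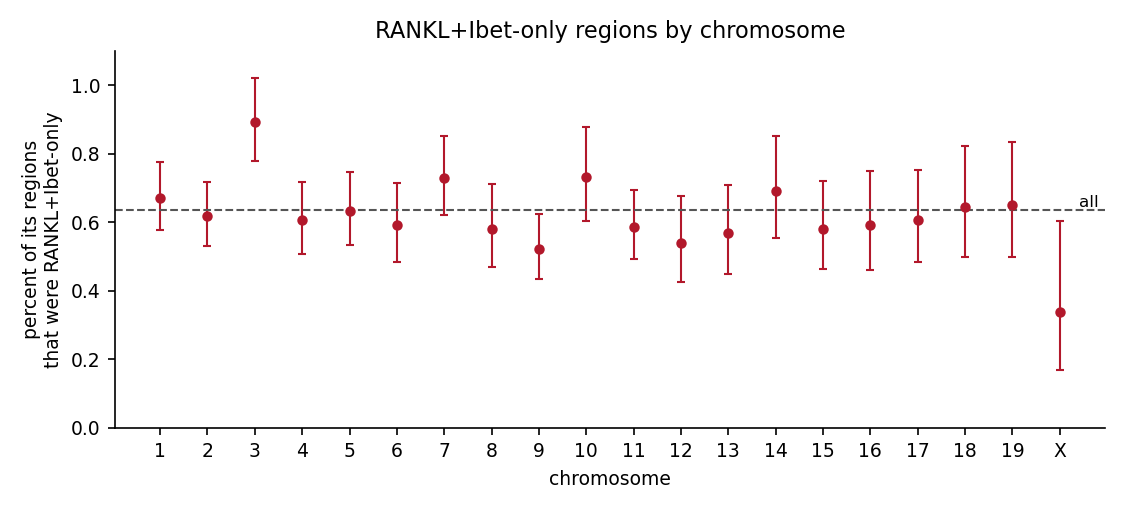
Percent of the merged regions of each chromosome that were RANKL+Ibet-only, with Clopper-Pearson 95% intervals (counting error only); the dashed line is the 0.636% over all regions, and the Y chromosome is left out. Chromosome 3 at 0.894%, 9 at 0.523% and X at 0.338% have intervals that leave out the line.

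Assigned to the nearest protein-coding gene (inside it or within 100 kb), 2057 RANKL+Ibet-only regions fell to 1814 of 21887 genes (8.29%), and 0.655% of the regions at protein-coding genes were RANKL+Ibet-only, against 0.279% for the RANKL pair and 0.245% for the Untreated pair. Of these genes 1604 had 1, 183 had 2, 22 had 3, 4 had 4 and 1 had 5. They were large genes with many regions, with a median length of 41.9 kb and 25 regions, against 20.1 kb and 10 regions over all genes with a region. Plxna2, which encodes a semaphorin receptor, had the most, with 5 of its 264 regions. Trim2, a ubiquitin ligase gene of neurons, had 4 of 125, Zan, a sperm protein gene, 4 of 44, Golim4, which encodes a Golgi membrane protein, 4 of 75, and Fbxw7, which encodes a subunit of a ubiquitin ligase that degrades Myc and cyclin E, 4 of 141. With 3 each followed Inpp5a, Ccdc172, Fmn1, Pde4dip, Syt6, Cdh4 and Ssbp3. Trim2, Golim4, Fbxw7, Pde4dip and Syt6 are on chromosome 3, and all of these except Golim4 are in the stretch from 80 to 110 Mb.

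The strongest region at Trim2, chr3:84249687-84250310 inside the gene, had a -log10 p of 6.07 in RANKL+Ibet replicate 1 and 13.9 in replicate 2, with pileups of 16 and 50. At Ccdc172, chr19:58558243-58558568 had 6.07 and 13.3, and 2 of its 3 regions stood 6467 and 12919 bp from any region of another library. At Inpp5a, an inositol phosphatase gene, chr7:139390879-139391332 had 5.42 and 9.56, with summits 2 bp apart, and lay 66 bp from a region called in all 7 libraries. At Ssbp3, chr4:106958003-106958610 had a -log10 p of 3.11 and a pileup of 11 in replicate 1, or 2.81 times background. In replicate 2 it had 22.6 and 64, or 4.62 times background. At Fbxw7 none of the 4 exceeded 7.43 in replicate 1 or 4.68 in replicate 2.

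Genes of RANKL signalling and of the osteoclast program had 0 to 2 RANKL+Ibet-only regions each. These and the other lists were chosen with earlier results of the same data known, and their shares are read beside the 0.655% over all regions at protein-coding genes. Of 25 osteoclast genes 1 had a region, Tyrobp, which encodes the DAP12 adaptor that passes costimulatory signals to Nfatc1, and the list held 1 of 728 regions (0.137%, 0.00348% to 0.763%), an interval that includes the 0.655%. That region, chr7:30395429-30395759, was 18022 bp from the gene, and an annotated start of another gene lay 574 bp from it. Nfatc1, the transcription factor that drives osteoclast formation, had 0 of 76 regions, Acp5, the tartrate-resistant acid phosphatase, 0 of 18, and Ctsk, the collagen-degrading cathepsin K, 0 of 14. All 3 had regions called in all 7 libraries, 11, 3 and 4, within which a further peak could not count.

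AP-1 and early response genes had 2 of 669 (0.299%, 0.0362% to 1.08%), both at Fos, the AP-1 subunit that RANKL needs to induce Nfatc1. One, chr12:85454008-85454240, lay 19649 bp from the gene, with a -log10 p of 4.80 in RANKL+Ibet replicate 1 and 2.95 in replicate 2. The other, chr12:85493666-85494077, was 16391 bp away on the opposite side, with 4.21 and 4.31. NF-kB genes had 4 of 610 (0.656%), a share at the background, 1 each at Rel and Rela, which encode NF-kB subunits, Map3k7, the TAK1 kinase that links the RANKL receptor to NF-kB, and Tnfaip3, the A20 inhibitor that ends NF-kB signalling. The Rel region, chr11:23735064-23735237, was 1609 bp from the gene, with 4.80 and 5.47 and summits 14 bp apart. The Tnfaip3 region, chr10:19016276-19016825, was 865 bp from the gene, with 6.07 and 3.60. Inflammatory cytokine genes had 1 of 322, 26666 bp from the growth factor gene Csf2, and interferon response genes 0 of 254.

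Macrophage identity genes had 9 of 838 (1.07%, 0.492% to 2.03%, which includes the 0.655%), spread over 7 of 27 genes. Marco, a scavenger receptor, had 2 of 25 regions. The one at chr1:120532513-120532969 was 27488 bp from the gene, with a -log10 p of 6.07 in RANKL+Ibet replicate 1 and 7.63 in replicate 2 and pileups of 16 and 38. Runx1, a transcription factor of blood cell development, had 2 of 136, both inside the gene. The stronger of these, chr16:92776400-92776877, also had 6.07 and 7.63, and the RANKL pair and the Untreated pair had 1 region of their own at Runx1 each. Mertk, which encodes a receptor for the uptake of dying cells, had 1 inside the gene (chr2:128743219-128743935; 6.07 and 8.57). Itgam, which encodes the CD11b integrin chain, had chr7:128046135-128046303 (5.42 and 6.73), 16336 bp from the gene and 4 bp from a region of another library. Msr1, Irf8 and Cebpb had 1 each.

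Genes of factors that restrain osteoclast formation, with their regulators, had 5 of 806 (0.620%). Rbpj, the nuclear effector of Notch, had chr5:53593326-53593813 inside the gene. Its -log10 p was 4.21 with a pileup of 13 in RANKL+Ibet replicate 1, and 29.0 with 73 in replicate 2. Over background these pileups were 3.32 and 5.27. The region lay 67 bp from a region called in all 7 libraries. Nfe2l2, the regulator of antioxidant genes, had chr2:75716156-75716542, 11492 bp from the gene (8.87 and 5.47). Bach1, a repressor of antioxidant genes, had chr16:87736004-87736195, 2657 bp from the gene (5.42 and 4.31). Irf8, which holds back Nfatc1, had chr8:120831095-120831582, 74400 bp from the gene (4.80 and 3.95), and Id2, an inhibitor of helix-loop-helix factors, had 1.

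For BET proteins and elongation factors the count was 2 of 419 (0.477%), at Aff1, a scaffold of the super elongation complex, and Ell, an elongation factor of the same complex. Brd2 had 0 of 10 regions and Hexim1, an inhibitor of P-TEFb, 0 of 1. Genes of Myc and ribosome biogenesis had 3 of 466 (0.644%), with 2 at Odc1, the first enzyme of polyamine synthesis, and 1 at Mycn. Myc had 0 of 52. Oxidative phosphorylation genes had 1 of 263, near Uqcrc2, a core subunit of complex III. This region, chr7:120632469-120632915, lay 2273 bp from the gene and had the largest -log10 p of all 2189 in RANKL+Ibet replicate 1, 15.4 with a pileup of 28, against 12.2 and 47 in replicate 2. Its summits were 2 bp apart, and over background its pileups were 7.15 in replicate 1 and 3.39 in replicate 2.

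Lists of other cell types were shorter and had 0 to 3 RANKL+Ibet-only regions. Dendritic cell markers had 3 of 352 (0.852%; Tcf4, Ciita and Id2), T lymphocyte markers 2 of 189 (1.06%; Gata3 and Bcl11b), fibroblast and osteoblast markers 1 of 245 (0.408%; Pdgfrb), neuronal adhesion and synapse genes 1 of 804 (0.124%; Dlg2), and B lymphocyte markers and granulocyte and erythroid markers 0 of 170 and 0 of 62. Their intervals, 0.176% to 2.47% for dendritic and 0.128% to 3.77% for T lymphocyte markers among them, all include the 0.655%. The Gata3 region, chr2:9867451-9867908 inside the gene, had 5.42 and 14.4 with summits 5 bp apart. The Tcf4 region, 71678 bp from the gene, had 4.21 and 18.1. As a check of the cells, regions called in all 7 libraries were present at 6 of 6 defining macrophage markers and 5 of 5 osteoclast markers, within 1 kb of the gene. They were present at 2 of 5 B lymphocyte, 2 of 5 T lymphocyte, 1 of 5 fibroblast and osteoblast and 2 of 5 granulocyte and erythroid markers. None of these marker genes had a RANKL+Ibet-only region within 1 kb. The shares of all genes with either kind of region within 1 kb were not worked out. Of all annotated protein-coding genes, 8.29% were assigned a RANKL+Ibet-only region inside or within 100 kb. The lack of one at so few markers is therefore a description only. In all, 33 RANKL+Ibet-only regions were at the 308 list genes in the annotation.

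The regions that ranked highest in both lists at once were at genes outside these lists. The first, chr18:63881273-63881871 inside Wdr7, a gene of vesicle acidification, had a -log10 p of 11.2 in RANKL+Ibet replicate 1 and 21.3 in replicate 2, with pileups of 23 and 62 and summits 8 bp apart. Next came regions inside Plekhg1 (chr10:3942281-3942859; 8.87 and 20.6) and Rnf17 (chr14:56512096-56512545; 10.4 and 18.7). The region nearest to C1d (chr11:17468382-17469277; 7.43 and 17.4) was 199205 bp from that gene, with summits 3 bp apart. Tmem59, Nbeal1 and Zbtb20, which encodes a zinc finger repressor, complete the 7 with the largest scores. Below them 12 regions tied at the next score, because their replicate 1 peaks had the same -log10 p of 6.73 and pileup of 17. The rule for naming took 5 of the 12, by position alone, among them those nearest to Ranbp3l, Nmbr (525768 bp away), Pip5k1b and Dapl1, and left out those nearest to Tent4a, Tfpi, Mgat4c, Kif2a, Gli2, Hmga2 and F3. In replicate 2 the tied regions ran from a -log10 p of 16.2 near Tent4a to 38.2 near Tfpi, and Dapl1 (chr2:59445972-59446439) and Hmga2 both had 29.7 with a pileup of 74.

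Among the 100 highest ranked, 8 lay within 1 kb of a gene end, at Rgs17, Hapln2, Acta2, Mier2, Mrps30, Tsc1, Prmt2 and Gip, and keeping all regions tied at the last place made this 9 of 112, with Tpcn2. Mier2, a gene of histone deacetylase complexes, had chr10:79557585-79558170, 542 bp from the gene, with 6.07 in RANKL+Ibet replicate 1 and 31.2 in replicate 2. At Acta2, the smooth muscle actin gene, chr19:34241251-34241741 had 6.07 and 22.0. At Tsc1, a subunit of the complex that restrains mTORC1, chr2:28639797-28640214 lay 778 bp from the gene and 284 bp from a region called in all 7 libraries. The 12 highest ranked and these 8 were all called in both RANKL+Ibet libraries by the rule, so their values describe how strong such calls were and test nothing.

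A stricter reading keeps the regions whose pileup over background, in both RANKL+Ibet libraries, reached the lowest value called in each of the other 5 libraries, 3.59. These numbered 61 (2.79%), a subset chosen after the values were seen. Their median length was 450 bp, and the summits of both libraries were within 50 bp in 40 of 61 (65.6%), against 37.2% of all RANKL+Ibet-only regions. They stood farther from other libraries' regions, 1661 bp at the median, with 13 (21.3%) within 500 bp. Inside a gene lay 38 (62.3%) and within 1 kb of a gene end 5 (8.20%), and 5 were on chromosome 3. Of the list genes 1, Gata3, had such a region. The region nearest to Tfpi, which encodes the inhibitor of tissue factor, was chr2:84511401-84512067, 34625 bp from the gene. It had the largest pileup of any in replicate 2, 85 with a -log10 p of 38.2, and 17 with 6.73 in replicate 1. Over background its pileups were 4.34 in replicate 1 and 6.14 in replicate 2. F3, which encodes tissue factor itself, had chr3:121737458-121737918, 2405 bp from the gene, with 6.73 and 26.8. Hmga2, a chromatin architectural gene, had chr10:120446904-120447192 inside the gene, with 6.73 and 29.7 and summits 2 bp apart, 799 bp from the Mir763 hairpin. Igf1, the growth factor gene, had chr10:87777102-87777520, 80744 bp away, with pileups of 16 and 60.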

How the data were processed

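The submitters' processing notes name MACS2, Bowtie2, cutadapt, FastQC, Picard, SAMtools and bedtools on mm10; versions and settings are not given in the sources used here. Peaks were called sample by sample, since each library has a list of its own. Each deposited line gives positions, a score (the whole part of 10 times the -log10 p in 100% of lines), a fold, which is a ratio of pileup to background, and the -log10 of the p-value and of the q-value. These values are the authors' own. The -log10 p and the pileup depend on the depth of each list, so values of different lists are set side by side only as a description. Pileup and background were recovered from the steps of the folds, all of which were whole multiples within a tolerance of 0.02.

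The 975394 peaks were merged and counted with Python 3.11.15, numpy 2.4.6, pandas 2.3.3 and scipy 1.17.1, by scripts checked on simulated data. Genes and sequences came from RefSeq on GRCm38.p6, and 308 of 310 list genes matched. The score that ranks a region is the smaller of its percentile ranks in both RANKL+Ibet lists. Genes named were the 12 with the most regions, up to 4 per list with at least 1 region, and Nfatc1, Fos, Myc, Irf8, Brd2, Hexim1, Runx1, Acp5 and Ctsk; regions named were the 12 with the largest score and those at gene ends among the 100 largest. A few items under these rules are not reported here. Further names were chosen after their values were seen. The members and the gene lists were chosen with earlier results of these data known. No test was made, because the calls that chose the regions are the measurement, and intervals are exact Clopper-Pearson intervals at 95% for counting error only. Alternatives were a -log10 q minimum, equal list lengths, another overlap, another merging distance, each library left out, other gene windows and a minimum pileup over background.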

Additional observations from a re-analysis of the deposited data

How the results depend on the processing

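The number of RANKL+Ibet-only regions was 2189 and followed the thresholds. It was 1113 with a -log10 q of at least 5 in all libraries, 58 with that minimum in the RANKL+Ibet libraries only, 1007 with lists of equal length (117175 peaks) and 61 with a minimum pileup over background in both libraries. Of the 2189 regions 58, 58, 689 and 61 were among these. With 50% of the region covered it was 2601, and with peaks up to 500 bp apart joined 1570. Leaving out 1 library gave 2687 to 31704: 31704 without RANKL+Ibet replicate 1, 22888 without RANKL+Ibet replicate 2 and 4012 without RANKL replicate 1. The other 4 libraries left out gave 2687 to 3166.

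The share within 1 kb of a gene end, 8.18%, was 6.29%, 5.17% and 5.48% with the q minimum in all libraries, with it in the RANKL+Ibet libraries and with joined peaks, 6.16% to 8.53% without 1 library, 19.5% within 2.5 kb and 14.0% for all annotated genes. The share inside a gene, 57.4%, was 53.2% and 50% with the q minima, 54.5% with equal lists, 55.3% with joined peaks, 62.3% with the minimum pileup, 54.9% to 59.6% without 1 library and 65.5% for all annotated genes. The 33 regions at list genes became 2 with the q minimum in the RANKL+Ibet libraries, 20 with equal lists, 56 with 50% cover, 20 with joined peaks, 1 with the minimum pileup, and 41 to 724 without 1 library. Counts at single genes and lists also followed the thresholds. With the q minimum in all libraries, counts moved at 34 named genes and stayed the same or close at 12. Plxna2 went from 5 to 1, Golim4 and Fbxw7 from 4 to 0, and Fmn1 and Ssbp3 kept 3. Macrophage identity genes went from 9 to 5, and AP-1 and early response genes from 2 to 5. With equal lists, counts moved at 32 named genes and stayed the same or close at 14. The minimum pileup was added after seeing the data. The causes of these shifts were not tested. No paired analysis was possible because the rule asks for calls in both RANKL+Ibet libraries and gives no test, and the labels tie no replicate number to a day or culture.

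Depth limits what the lists can show: calls in each library stop at its own lowest pileup, read totals are not given, and 1 Ibet only library was analysed here. Regions are not replicates, so with 2 RANKL+Ibet libraries the spread between cultures is not known. A peak gained inside a region shared with another library could not count.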

Other observations

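Some RANKL+Ibet-only regions lay at microRNA precursors, values that belong in no comparison above. The hairpin of Mir7016 on chromosome 4 overlapped a region with a -log10 p of 3.65 in RANKL+Ibet replicate 1 and 7.63 in replicate 2, and that of Mir5618 on chromosome 9 overlapped a region with 3.11 and 4.31. Within 1 kb of a region lay Mir26b, 29 bp away beside Ctdsp1 (3.11 and 4.31), Mir343 at 331 bp, Mir763 at 799 bp, and Mir202 and Mir7686 at 852 and 990 bp from 1 shared region. The mature RefSeq sequences of the overlapped hairpins are given with bases 2 to 8, the seed, in capitals. They share no seed.
mmu-miR-7016-5p: cAGGGAGGggagcgagaguag
mmu-miR-7016-3p: aCCUGCCUccugcucuccccag
mmu-miR-5618-5p: uACCCUUUacaccguguagu
mmu-miR-5618-3p: cUAUACCAuguaaagggu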
